A study of Mus musculus with 62 samples.

Results

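Transcripts of 10 major acute phase proteins were followed in every liver library of a mouse study of sleeve gastrectomy and dietary protein. The genes were taken by symbol, with earlier results of these data known, as serum amyloid A (Saa1, Saa2, Saa3), orosomucoid (Orm1, Orm2, Orm3), lipocalin 2 (Lcn2), haptoglobin (Hp), an inter-alpha-trypsin inhibitor heavy chain (Itih3) and a serine protease inhibitor (Serpina3n). The table of counts held 56884 genes, all 10 were among them, and all 10 passed the filter on low counts that left 16087 genes for testing. Serum amyloid A and lipocalin 2 reached levels in single mice of several groups that were far above those of their group mates, and most of the summed signal of these groups lay in 1 or 2 livers.

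The livers came from male mice of C57BL/6J, a strain prone to obesity on rich food, bought at 5 weeks of age and housed in pairs. At 17 weeks they had a sham operation, in which the abdomen was opened, the short vessels tied and the stomach handled, or a sleeve gastrectomy (SG) that removed about 75% of the stomach. Sham and SG mice alike had a recovery gel around surgery, isoflurane, norocillin and buprenorphine, and all livers were taken 14 weeks after surgery, following a fast of 16 h and refeeding for 4 h. RNA was read in pairs of 150 bases from polyadenylated transcripts, and each library was taken as 1 mouse.

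All mice of the WD, P36, P21 and P7 groups had first eaten a Western diet (42% of calories from fat) for 12 weeks. From day 7 after surgery, WD mice went back to that diet (15.2% of calories from protein), while P36, P21 and P7 mice ate isocaloric diets with 36%, 21% or 7% of calories from protein and 20% from fat. Sham groups held 8 (WD), 5 (P36), 7 (P21) and 7 (P7) libraries, and SG groups held 8, 4, 6 and 7 in the same order. The 4 sham mice on chow served as a reference, although the labels give neither the make-up of that chow nor whether these mice ate the Western diet first. A single SG mouse on chow entered no comparison. Library totals ran from 6.99 M to 34.01 M counts, with 5.73% to 13.27% from mitochondrial genes, and numbers such as "SG WD library 5" only name libraries. Cage mates could not be told from the labels, and p-values treat all mice as independent.

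The acute phase response is the change in plasma proteins that the liver makes after injury or infection. Interleukin-6, acting through STAT3, and interleukin-1 and tumour necrosis factor, acting through NF-kappaB, raise the transcription of positive acute phase genes in hepatocytes, with C/EBP factors taking part. In mice, SAA1 and SAA2 are the classical acute phase proteins, carried in plasma on high-density lipoprotein, whereas SAA3 is also made by macrophages and fat. Lipocalin 2 is made by hepatocytes in this response and is also stored in the granules of neutrophils.

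Promoters of 8 of the 10 genes were matched in RefSeq on GRCm38.p6, and 4 are printed to show 2 pairs of neighbouring genes of a family, Saa1 with Saa2 and Orm2 with Orm3, side by side. Each sequence holds the 250 bases before the annotated start, 5′ to 3′ on the strand of the gene. Capitals mark matches to a C/EBP motif (TTNNGNAA, on either strand) or to an NF-kappaB motif.
Saa1, chr7:46742981-46743230, minus strand: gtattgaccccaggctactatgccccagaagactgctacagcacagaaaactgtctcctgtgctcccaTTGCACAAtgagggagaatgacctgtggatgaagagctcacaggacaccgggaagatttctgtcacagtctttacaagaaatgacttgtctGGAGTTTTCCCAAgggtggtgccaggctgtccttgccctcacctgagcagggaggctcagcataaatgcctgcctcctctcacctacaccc
Saa2, chr7:46751583-46751832, plus strand: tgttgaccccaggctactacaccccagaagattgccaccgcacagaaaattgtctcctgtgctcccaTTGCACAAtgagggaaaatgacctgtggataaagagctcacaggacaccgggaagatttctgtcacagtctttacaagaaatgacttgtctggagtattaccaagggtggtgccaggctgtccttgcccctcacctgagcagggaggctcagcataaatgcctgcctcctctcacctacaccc
Orm2, chr4:63362199-63362448, plus strand: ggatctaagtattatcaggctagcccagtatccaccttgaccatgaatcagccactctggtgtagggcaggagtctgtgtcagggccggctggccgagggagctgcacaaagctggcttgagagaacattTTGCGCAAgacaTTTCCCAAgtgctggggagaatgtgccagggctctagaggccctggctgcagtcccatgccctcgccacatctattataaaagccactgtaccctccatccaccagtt
Orm3, chr4:63355908-63356157, plus strand: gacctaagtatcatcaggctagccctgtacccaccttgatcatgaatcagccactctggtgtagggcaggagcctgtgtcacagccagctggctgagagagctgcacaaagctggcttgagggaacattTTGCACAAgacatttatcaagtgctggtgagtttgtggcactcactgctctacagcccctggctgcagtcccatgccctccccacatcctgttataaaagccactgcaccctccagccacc
The promoters of Saa1 and Saa2 were identical at 95.6% of 249 aligned bases, and those of Orm2 and Orm3 at 89.0% of 245. Saa1 and Saa2 shared a C/EBP match at -182 to -175 and -183 to -176 from the start. Saa1 also held an NF-kappaB match at -91 to -82, whose end overlapped a second C/EBP match at -86 to -79, and the aligned stretch of Saa2 held neither. Orm2 had C/EBP matches at -120 to -113 and -108 to -101, and Orm3 had 1, at -121 to -114.

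A C/EBP match was found in 7 of the 8 promoters, Itih3 being the exception, against 36.8% of all 32851 mouse promoters of the same length. An NF-kappaB match was found in those of Saa1 and Lcn2, the latter at -43 to -34, against 9.55% of all promoters. Neither a STAT motif (TTCNNNGAA, 7.02% of all promoters) nor the IL-6 response element CTGGGAA (9.1%) occurred in any of the 8 windows. Both strands were searched, and a match is a description of letters and not a binding site.

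Values are CPM, the usual count of a gene scaled to a fixed library total, with TMM factors that adjust libraries for differences in composition. Levels of the 10 genes were lowest in sham mice on chow or on the low-protein diet for most members, and highest in SG mice. In order of the group medians, SG P36 came first for Saa1, Saa2, Orm1, Orm2, Hp, Itih3 and Serpina3n, and SG WD for Saa3 and Orm3, while both stood at 410 CPM for Lcn2. Sham chow came last for Saa1, Saa2 and Lcn2, sham P7 for Orm1, Orm2, Orm3, Hp and Serpina3n, sham P21 for Saa3 and sham WD for Itih3. The highest group median was 175 times the lowest for Saa2, 85.6 times for Saa1, 79.5 times for Lcn2 and 75.8 times for Orm2, but 2.35 times for Hp. Of 80 pairs of groups next to each other in these orders, only 3 had ranges that did not overlap: Saa1 in sham P21 above sham chow, Orm1 in sham WD above sham chow, and Orm1 in sham P21 above sham P7.

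**Figure D1:**
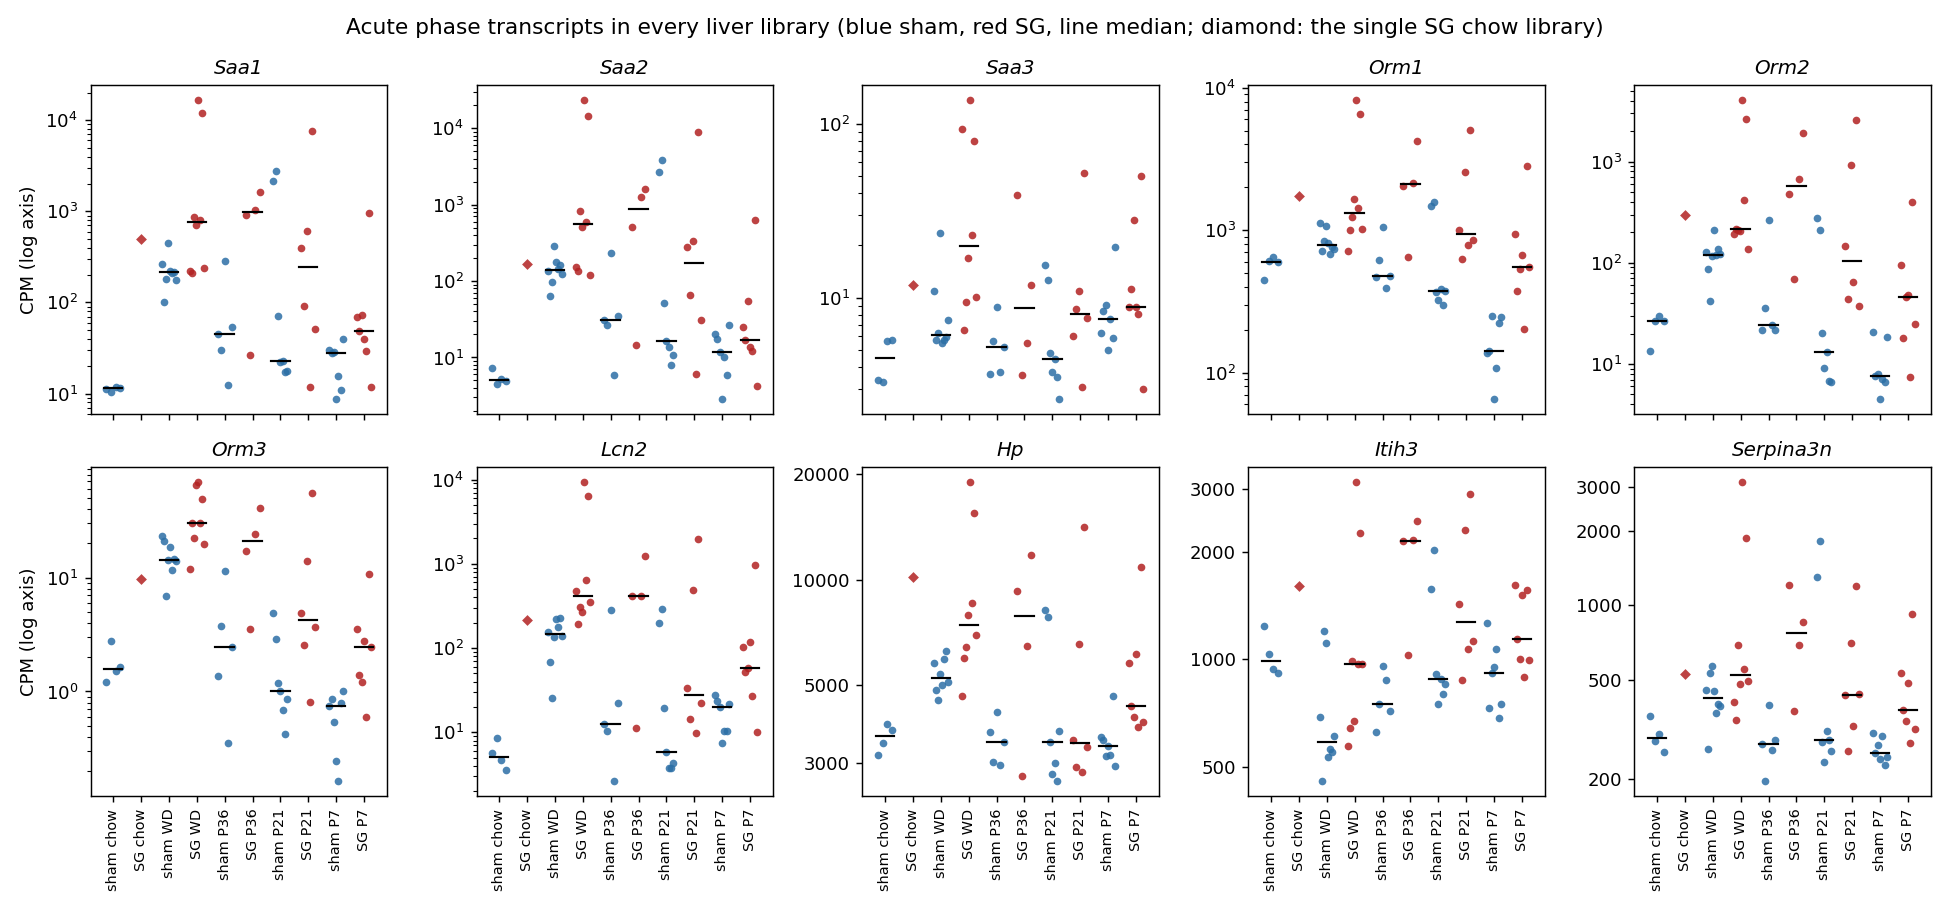
CPM of each of the 10 transcripts (log axis) in every library, by group; blue points are sham and red points SG mice, lines are group medians and the diamond is the single SG chow mouse. In several groups 1 or 2 points lie far above the rest for Saa1, Saa2 and Lcn2, and the 4 sham chow points of Saa1 lie close together.

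The same livers were highest for nearly all of the 10 genes. SG WD library 5, sham P36 library 3 and SG P21 library 5 were each the highest of their group for 10 of 10 members. SG P7 library 6 was the highest for 9, with Itih3 the exception, and SG P36 library 4 for 8, with Saa3 and Serpina3n the exceptions. Among sham P21 mice, libraries 1 and 2 took the first and second place for all 10 genes. The 5 libraries with the most Saa1 of the study were SG WD libraries 5 and 7, SG P21 library 5 and sham P21 libraries 1 and 2, so they came from both operations.

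How much of a group lay in these mice differed between the genes. For Saa1, the highest liver held 86.9% of the summed CPM of SG P21, 77.9% of SG P7, 67.0% of sham P36, 54.7% of sham P21 and 52.8% of SG WD. With the second liver added, these shares reached 97.0% in sham P21 and 90.4% in SG WD. For Saa2, SG P21 library 5 held 92.6% and SG P7 library 6 held 83.4%, and for Lcn2, sham P36 library 3 held 85.4%. Itih3 was more even, with 18.5% to 31.4% of a group in its highest library, and Hp ran from 14.6% to 42.4%.

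**Figure D2:**
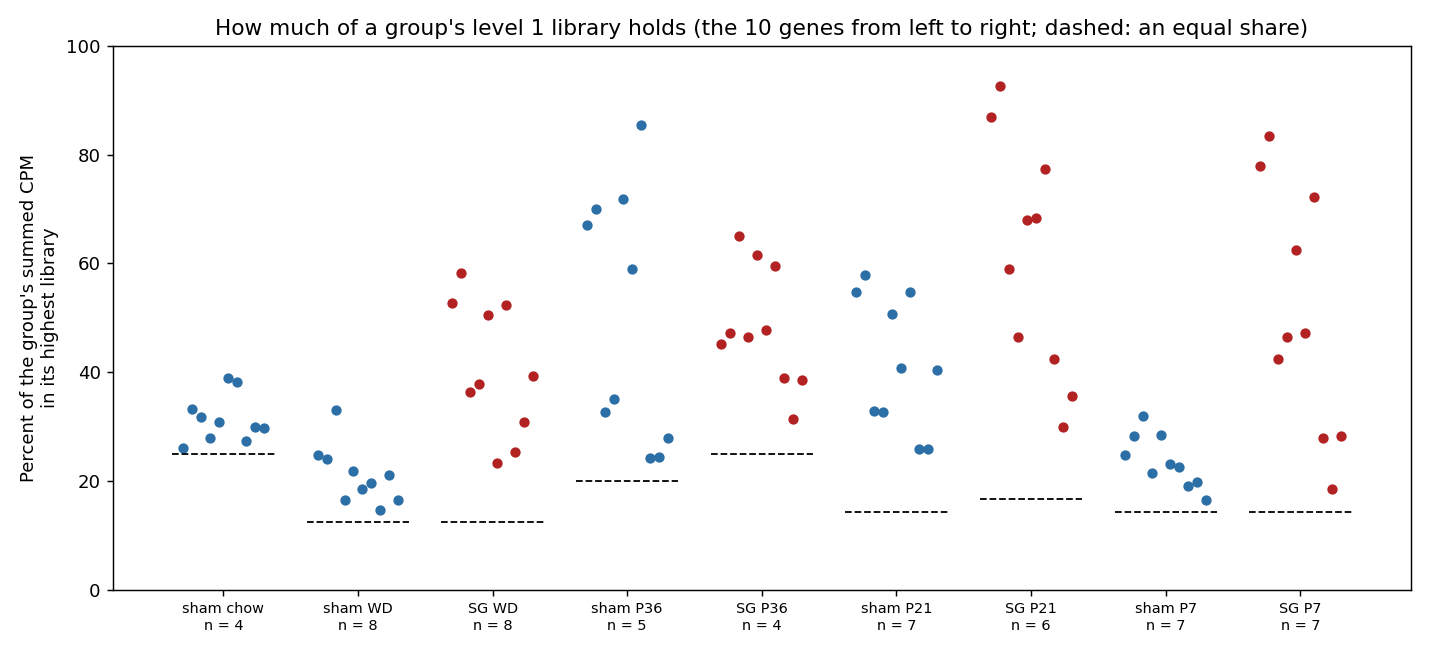
Percent of the summed CPM of a group that lay in its highest library, for the 10 genes in each of the 9 groups with more than 1 library; each point is 1 gene, in the order used in the text, blue for sham and red for SG, and the dashed line is the share each library would hold if all were equal. Points of Saa1, Saa2 and Lcn2 stand far above the line in SG P21, SG P7 and sham P36 and closer to it in sham WD.

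The biological coefficient of variation, the spread between mice of a group that counting error does not give, was 28.2% over all genes. It was 139% for Saa2, 125% for Saa1, 123% for Lcn2 and 106% for Orm2, higher than in 98.6% or more of the genes tested. It came to 77.2% for Orm3, 73.2% for Saa3, 63.7% for Orm1 and 51.9% for Serpina3n. Hp at 39.4% and Itih3 at 37.7% varied least among the 10. The width of the group comparisons below follows from these values.

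Saa1 (ENSMUSG00000074115) was low and even on chow, with 11.3, 10.5, 11.7 and 11.5 CPM in the 4 sham mice. On WD, the 8 sham livers held 102 to 453 CPM with a median of 215, and the 8 SG livers 212 to 16738 with a median of 758. The SG values were 220, 212, 871, 716, 16738, 799, 11918 and 237 CPM in libraries 1 to 8. Libraries 5 and 7 stood apart, libraries 3, 4 and 6 lay above every sham WD liver, and libraries 1, 2 and 8 lay among them.

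On P36, the sham livers held 45.6, 30.2, 287, 12.5 and 53.6 CPM of Saa1 and the SG livers 907, 26.7, 1046 and 1635. All but 1 of the SG mice, library 2, were above the highest sham mouse. Sham P21 livers held 2164, 2801, 71.2, 22.4, 22.5, 17.2 and 17.6 CPM, and SG P21 livers 396, 92.0, 616, 11.7, 7709 and 51.3. The medians were 22.5 and 244 CPM, sham libraries 1 and 2 and SG library 5 stood far above them, and the ranges overlapped over most of their width. On P7, sham livers held 8.63 to 39.9 CPM with a median of 28.0 and SG livers 11.7 to 951 with a median of 48.6, and without SG library 6 the highest SG liver held 72.9.

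Saa2 (ENSMUSG00000057465), which lies beside Saa1 in the genome and encodes a closely similar protein, followed the same livers. Sham chow mice held 7.2, 4.44, 5.17 and 4.88 CPM. On WD, sham livers held 64.7 to 287 CPM with a median of 140, and SG livers 119 to 23495 with a median of 551, of which library 5 held 23495 and library 7 held 14551. These 2 livers carried the most Saa2 of the study, and SG WD libraries 1, 2 and 8 were within the sham range.

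Saa2 in sham P36 mice was 31.1, 26.9, 233, 5.95 and 35.4 CPM, and in SG P36 mice 512, 14.7, 1247 and 1586. Sham P21 mice held 2682, 3810, 51.8, 16.3, 13.8, 8.03 and 10.8 CPM, and SG P21 mice 281, 65.1, 332, 6.16, 8914 and 30.7. On both diets the high livers were those that were high in Saa1. On P7, sham mice held 2.83 to 26.8 CPM with a median of 11.8, and SG mice 4.22 to 638 with a median of 17.1.

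Saa3 (ENSMUSG00000040026) was a weak transcript throughout. Sham chow mice held 3.38, 3.29, 5.67 and 5.73 CPM. Sham WD mice held 5.51 to 23.5 with a median of 6.12, and SG WD mice 93.0, 6.56, 9.49, 16.9, 137, 22.9, 79.1 and 10.1 in libraries 1 to 8. Saa3 set itself apart from Saa1 in SG WD library 1, which was second in Saa3 and lay within the sham WD range for Saa1.

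In sham P36 mice Saa3 lay between 3.67 and 8.83 CPM, and in SG P36 mice it was 39.0, 3.58, 5.49 and 11.9. Sham P21 mice held 2.61 to 15.5 with a median of 4.45, and SG P21 mice 3.08 to 52.0 with a median of 8.10. On P7 the ranges were 5.0 to 19.7 in sham mice and 2.98 to 50.1 in SG mice, with medians of 7.58 and 8.85. The sham and SG ranges of Saa3 overlapped on all 4 diets.

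Orm1 (ENSMUSG00000039196) encodes an orosomucoid, also called alpha-1-acid glycoprotein, a plasma protein that binds basic and neutral drugs and lipids. It was 450, 606, 643 and 598 CPM in the sham chow mice. On WD it ran from 682 to 1123 with a median of 790 in sham mice, and from 711 to 8215 with a median of 1327 in SG mice, where library 5 held 8215 and library 7 held 6492. Sham WD lay wholly above sham chow, and SG WD overlapped sham WD.

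Sham P36 mice held 468, 616, 1049, 392 and 473 CPM of Orm1, and SG P36 mice 2050, 645, 2141 and 4206. On P21, sham mice held 1490, 1575, 371, 326, 386, 296 and 373, and SG mice 1006, 629, 2555, 788, 5080 and 860. All 6 SG P21 livers thus exceeded 5 of the 7 sham P21 livers, and sham libraries 1 and 2 lay among them. On P7, sham mice held 64.9 to 251 with a median of 141 and SG mice 201 to 2828 with a median of 549, and a single SG mouse, library 5, was within the sham range.

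Orm2 (ENSMUSG00000061540), a second orosomucoid gene, was 13.4, 26.5, 29.7 and 26.5 CPM on chow. Sham WD mice held 42.2 to 209 with a median of 121, and SG WD mice 137 to 4077 with a median of 214, again highest in libraries 5 (4077) and 7 (2620). Sham P36 mice held 21.7, 35.9, 266, 24.1 and 21.9, and SG P36 mice 476, 68.8, 667 and 1933. Apart from sham library 3, no sham P36 mouse reached the lowest SG P36 value.

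On P21, sham mice held 277, 213, 20.3, 9.22, 13.2, 6.84 and 6.59 CPM of Orm2, and SG mice 145, 44.2, 918, 64.2, 2569 and 37.8. As for Orm1, the SG livers were above all sham livers but libraries 1 and 2. On P7, sham mice held 4.47 to 20.9 with a median of 7.55, and SG mice 7.39 to 401 with a median of 46.0.

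Orm3 (ENSMUSG00000028359), the weakest of the 3 orosomucoid transcripts, was 1.22, 2.78, 1.5 and 1.63 CPM on chow. Sham WD mice held 6.85 to 23.1 with a median of 14.3 and SG WD mice 11.8 to 69.5 with a median of 30.0. Here SG WD libraries 5 and 7, at 69.5 and 49.1, did not stand apart, since library 4 held 64.9. Orm3 differed in this from the other 9 genes, for which libraries 5 and 7 or libraries 5 and 1 came first.

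Sham P36 mice held 1.36, 3.73, 11.4, 0.353 and 2.48 CPM of Orm3, and SG P36 mice 17.2, 3.50, 24.3 and 41.1. Sham P21 mice held 4.86, 2.88, 1.19, 1.02, 0.687, 0.428 and 0.868, and SG P21 mice 4.86, 2.55, 13.9, 0.810, 55.5 and 3.67. Sham P7 mice held 0.164 to 1.01 with a median of 0.741, and SG P7 mice 0.600 to 10.8 with a median of 2.48. All sham P21 and sham P7 livers lay below all sham WD livers, and the SG ranges overlapped the sham ranges on each diet.

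Lcn2 (ENSMUSG00000026822) encodes lipocalin 2, which binds the iron carriers of bacteria. It was 5.66, 8.58, 4.67 and 3.56 CPM on chow. Sham WD mice held 25.5 to 227 with a median of 147, and SG WD mice 470, 193, 310, 271, 9457, 650, 6359 and 350. SG WD library 2 was the only one of the 8 below the highest sham WD liver.

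Sham P36 livers held 12.7, 10.3, 283, 2.65 and 22.6 CPM of Lcn2, and SG P36 livers 410, 11.4, 410 and 1225. Sham P21 livers held 201, 288, 19.5, 5.91, 3.76, 3.78 and 4.34, and SG P21 livers 33.5, 14.6, 490, 9.72, 1945 and 22.1. On P7, sham livers held 7.58 to 27.6 with a median of 20.2, and SG livers 10.2 to 965 with a median of 58.5. Library 6 held the 965 CPM, and the next SG P7 liver held 119.

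Hp (ENSMUSG00000031722) encodes haptoglobin, which binds free haemoglobin. It was 3163, 3423, 3878 and 3742 CPM on chow. Sham WD mice held 4551 to 6260 with a median of 5236, above all 4 chow mice, and SG WD mice 4655 to 19003 with a median of 7428. On P36, sham mice held 3681, 3023, 4210, 2968 and 3459, and SG mice 9252, 2752, 6462 and 11775. The SG P36 group thus held the lowest and the highest haptoglobin level of that diet.

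Sham P21 mice held 8206, 7835, 3458, 2797, 3007, 2671 and 3707 CPM of Hp, and SG P21 mice 3493, 2932, 6546, 2826, 14092 and 3342. On P7, sham mice held 2951 to 4658 with a median of 3349, and SG mice 3814 to 10886 with a median of 4369. A single sham P7 liver, library 7 at 4658, lay above the lowest SG P7 liver.

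Itih3 (ENSMUSG00000006522) encodes a heavy chain that is linked to bikunin and hyaluronan in plasma and matrix. It was 1239, 1033, 937 and 915 CPM on chow, and lower in most sham WD mice, which held 456 to 1202 with a median of 585. SG WD mice held 573 to 3140 with a median of 968. Sham P36 mice held 625, 750, 956, 874 and 718, and SG P36 mice 2139, 1029, 2155 and 2436, so that every SG P36 liver exceeded every sham P36 liver. On P21, sham mice ran from 748 to 2020 with a median of 878 and SG mice from 875 to 2899 with a median of 1274, and on P7 these ranges were 686 to 1260 and 894 to 1612.

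Serpina3n (ENSMUSG00000021091) encodes a secreted inhibitor of serine proteases and is the murine relative of human alpha-1-antichymotrypsin. Chow mice held 358, 283, 304 and 256 CPM, sham WD mice 263 to 568 with a median of 424, and SG WD mice 345 to 3161 with a median of 527. Sham P36 mice held 276, 196, 396, 262 and 287, and SG P36 mice 1212, 376, 694 and 859, with sham library 3 alone above the lowest SG liver. Sham P21 mice held 1299, 1815, 282, 234, 313, 288 and 260, and SG P21 mice 435, 258, 708, 328, 1199 and 440. Serpina3n was therefore highest on P21 in a sham mouse. On P7, sham mice held 227 to 305 with a median of 255 and SG mice 278 to 920 with a median of 380.

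**Figure D3:**
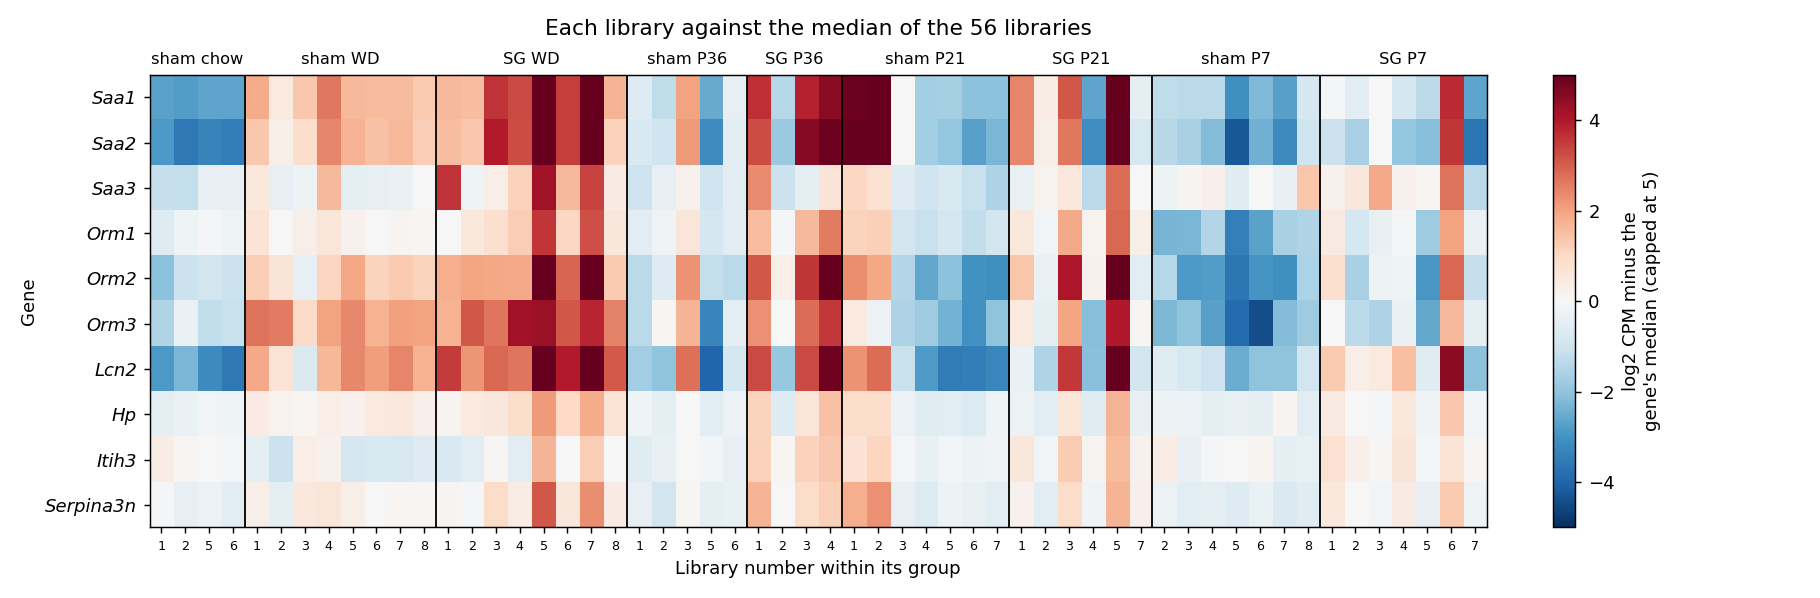
Colour gives log2 CPM minus the median of the gene over the 56 libraries, for the 10 genes in rows and the libraries in columns, ordered by group. Values are capped at 5 log2 units. Columns of single mice in SG WD, SG P21 and SG P7, and the adjacent columns 1 and 2 of sham P21, stand above the other columns of their group in nearly all rows. In SG P36, all columns but that of library 2 are high in most rows.

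The Western diet was compared with chow in sham mice to ask how diet alone bears on these genes. Of the 10 genes, 4 rose and 0 fell in edgeR's quasi-likelihood test, with p adjusted over all genes, and 31.7% of all genes were called in this comparison. Lcn2 was higher on WD by 4.67 ± 1.58 on the log2 scale (SE, adjusted p = 0.0195), Saa2 by 4.78 ± 1.85 (adjusted p = 0.0422), Saa1 by 4.35 ± 1.59 (adjusted p = 0.0309) and Orm3 by 3.11 ± 0.80 (adjusted p = 0.00223). The median log2 difference of the 10 genes was 1.65, against -0.01 for all genes. Orm2 (2.32 ± 1.15, adjusted p = 0.118), Hp (0.59 ± 0.36, adjusted p = 0.209), Orm1 (0.56 ± 0.60, adjusted p = 0.504) and Itih3 (-0.53 ± 0.33, adjusted p = 0.219) did not pass.

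For 7 of the 10 (Saa1, Saa2, Orm1, Orm2, Orm3, Lcn2 and Hp) no chow liver reached the lowest sham WD liver, which held for 14.5% of all genes in either direction. The exact two-sided permutation p of Saa1, Saa2, Orm2, Orm3, Lcn2 and Hp was 0.00202 each, unadjusted and the smallest that 8 against 4 mice allow. The count of 4 rested on the chow mice: it was 1 without chow library 1, 5 or 6 and 2 without chow library 2, and Orm3 alone was called whichever library was left out. The call of Saa2 was also lost without sham WD library 4, 5 or 6. The count was 8 when only the 2 groups were fitted. The share of all genes given above belongs to the fit of all 9 groups. No share is given for the fit of the 2 groups, so its count of 8 has no background to be read against. The fit of all 9 groups gives the chow mice a spread shared with the others, and the part of this in the change was not tested. Of 12 macrophage markers, 10 rose as well (Cd68 by 2.74 ± 0.40 log2, adjusted p = 1.02e-06), and of 10 hepatocyte markers, 6 fell (median -0.82). Mitochondrial genes took 6.14% to 9.81% of the counts of sham WD libraries, and chow libraries lay higher, at 9.93% to 13.27%. The part of these in the results was not tested.

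SG was compared with sham surgery on each diet, and the question throughout was what the operation leaves behind in the liver after 14 weeks. On WD, 5 of the 10 genes rose, against 2.34% of all genes called. Saa2 was higher by 5.08 ± 1.36 log2 (adjusted p = 0.0297), Saa1 by 4.12 ± 1.15 (adjusted p = 0.0382), Lcn2 by 3.97 ± 1.11 (adjusted p = 0.0384), Saa3 by 2.40 ± 0.57 (adjusted p = 0.0101) and Orm1 by 1.69 ± 0.49 (adjusted p = 0.0489). Orm2 missed the threshold at 3.07 ± 0.90 (adjusted p = 0.052), as did Serpina3n at 1.23 ± 0.39 (adjusted p = 0.0814), Itih3 at 0.84 ± 0.28 (adjusted p = 0.101), Hp at 0.81 ± 0.29 (adjusted p = 0.149) and Orm3 at 1.26 ± 0.54 (adjusted p = 0.267). The median log2 difference of the members was 2.05, against 0.02 for all genes.

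These 5 calls rested on SG WD libraries 5 and 7. Without library 5 the count was 0, without library 7 it was 1, and without both it was 0. It was also 1 without any one of sham WD libraries 1, 2, 5, 6, 7 and 8, 3 without sham WD library 3, 6 without sham WD library 4 or SG WD library 1, 3, 4, 6 or 8, and 7 without SG WD library 2. Saa3 lost its call only without SG WD library 5 among the single libraries. limma-voom and a fit of the 2 groups alone made 0 calls, and edgeR's robust setting 2, while DESeq2 made 5. Without the 5 libraries richest in Saa1, Saa1 was higher by 1.15 log2 (adjusted p = 0.959), Lcn2 by 1.37 (adjusted p = 0.933) and Saa3 by 1.56 (adjusted p = 0.236). Libraries left out for their high values give a p that shows only what the call depends on. Exact two-sided permutation tests on log2 CPM of all 8 and 8 mice were run on the members only and not adjusted. They gave a p under 0.05 for 8 of the 10, among them Lcn2 (0.000466), Orm2 (0.00109) and Saa1 (0.00932). Serpina3n (0.0662) and Itih3 (0.0918) did not pass. Of the 8 SG livers, 7 were above every sham liver for Lcn2, 5 for Saa1, 3 for Serpina3n and 2 for Itih3.

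On P36, 1 of the 10 genes rose, against 2.22% of all genes. Itih3 was higher by 1.31 ± 0.37 log2 (adjusted p = 0.0428), and it was the only member whose SG and sham ranges were apart, as 4.95% of all genes were. Its exact two-sided permutation p was 0.00794, unadjusted and the smallest that 4 against 5 mice allow. Differences of the other 9 were all positive and did not pass, among them Orm3 (2.47 ± 0.75, adjusted p = 0.064), Orm1 (1.91 ± 0.65, adjusted p = 0.113), Orm2 (3.41 ± 1.18, adjusted p = 0.127) and Saa1 (3.40 ± 1.44, adjusted p = 0.246). The median was 2.19 for the members and 0.01 for all genes. The count of 1 became 3 without sham library 3 or without SG library 2, the mice that ran against their groups, and 0 without any one of sham libraries 1, 2, 5 and 6 and SG libraries 1, 3 and 4. DESeq2 called 3, while Itih3 was not called by limma-voom or without the filter on low counts.

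On P21, 2 of the 10 rose, against 8.52% of all genes. Orm3 was higher in SG mice by 3.10 ± 0.68 log2 (adjusted p = 0.00433) and Orm2 by 3.02 ± 0.98 (adjusted p = 0.0427). The exact permutation p, unadjusted, was 0.0385 for Orm3 and 0.0606 for Orm2. Orm1 (1.40 ± 0.53, adjusted p = 0.0855), Lcn2 (2.48 ± 1.14, adjusted p = 0.163), Saa1 (1.02 ± 1.13, adjusted p = 0.622) and Serpina3n (-0.19 ± 0.43, adjusted p = 0.833) did not pass. High livers stood on both sides of this comparison. Without SG library 5 the count was 0 and the difference of Saa1 was -1.72 log2. Without sham library 1 or 2 it was 3, and without SG library 3 or any one of sham libraries 3 to 7 it was 1. With neither sham library 1 nor 2 it was 6. Without the 5 libraries richest in Saa1 it was 5. Lcn2 was then higher by 3.84 (adjusted p = 0.0207), Orm2 by 4.33 (adjusted p = 0.00208) and Saa1 by 2.86 (adjusted p = 0.0393). Orm3 was higher by 2.63 (adjusted p = 0.0129) and Orm1 by 1.66 (adjusted p = 0.013). Since libraries were picked here for their high values, these counts and p-values show only what a call depends on. The 8.52% belongs to the fit of all libraries.

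On P7, 0 of the 10 genes were called in edgeR's test, nor any other gene (0.0% of all genes), and DESeq2 and limma-voom also called 0 of the 10. At an unadjusted p under 0.05 there were 7 members and 681 of all genes. All 10 differences were positive, with a median of 2.38 against 0.0 for all genes. Orm1 was higher in SG mice by 2.38 ± 0.54 log2 (adjusted p = 0.25), Lcn2 by 3.45 ± 1.17 (adjusted p = 0.831), Orm2 by 3.13 ± 0.97 and Orm3 by 2.37 ± 0.71 (adjusted p = 0.819 for both). The exact two-sided permutation test on log2 CPM, with 7 mice in each group, was run on the members only and not adjusted. It gave a p under 0.05 for 8 of the 10, lowest for Orm1 and Serpina3n (0.00233 each). Saa2 (0.214) and Saa3 (0.353) did not pass it. Without SG P7 library 6, Lcn2, SG against sham on P7, was at 1.83, Orm2, SG against sham on P7, at 1.93 and Saa1, SG against sham on P7, at 0.97, from 2.92 with it.

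**Figure D4:**
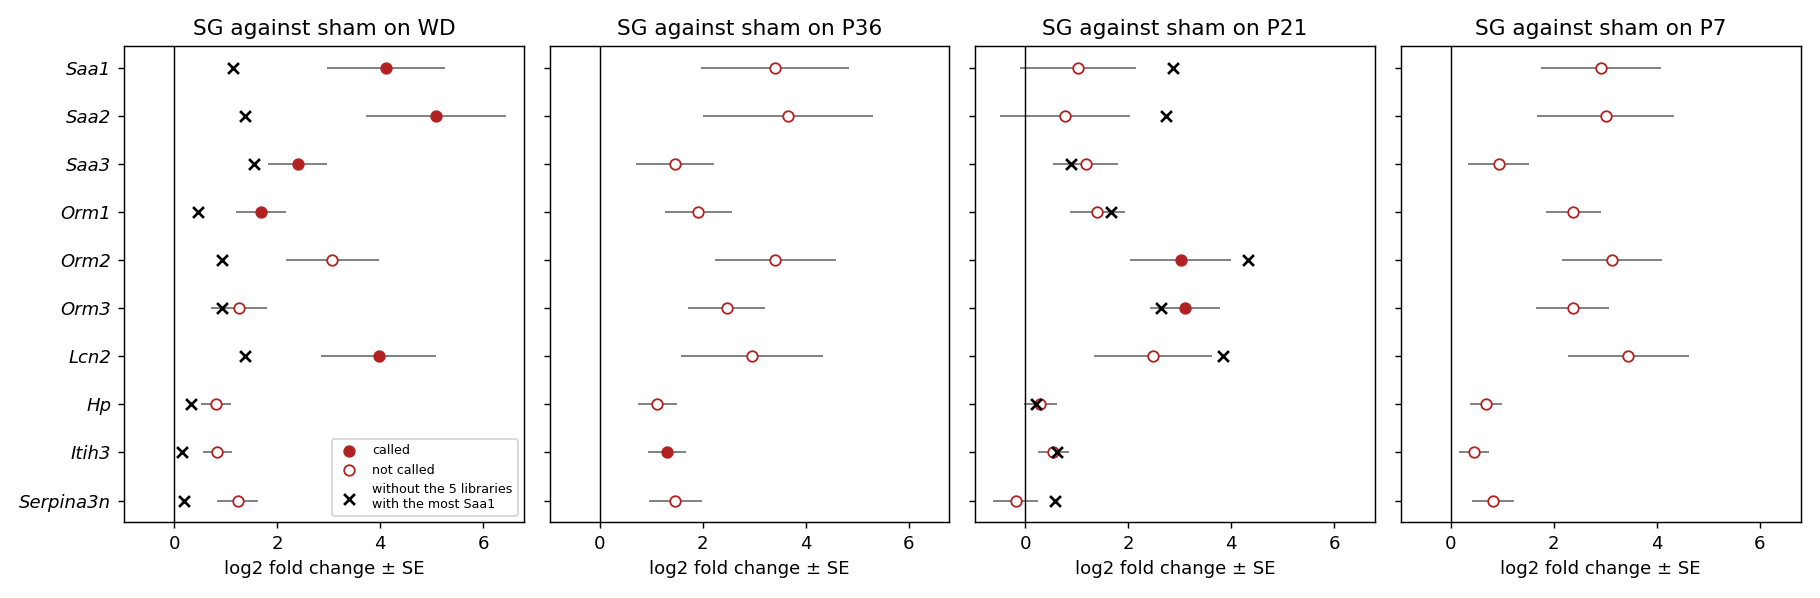
Log2 difference of SG and sham mice with its SE for the 10 genes on WD, P36, P21 and P7; filled points passed an adjusted p of 0.05, and crosses on WD and P21 give the difference without the 5 libraries richest in Saa1. Nearly all points lie to the right of 0, and the crosses of Saa1, Saa2 and Lcn2 lie left of their points on WD and right of them on P21.

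Whether surgery acted differently on WD, P36 or P7 than on P21 was tested as a difference of differences. None of the 10 genes passed in edgeR's test, for P36 (0.23% of all genes called), P7 (1.3%) or WD (0.124%), nor with DESeq2 or limma-voom. Members at an unadjusted p under 0.05 numbered 1, 0 and 3, beside 2217, 2698 and 2119 of all 16087 genes. For Saa2 the surgery effect on WD exceeded that on P21 by 4.31 ± 1.81 log2 (adjusted p = 0.28), for Saa1 by 3.10 ± 1.57 (adjusted p = 0.39), and for Serpina3n that on P36 exceeded that on P21 by 1.66 ± 0.67 (adjusted p = 0.251). For Orm3 the effect on WD minus that on P21 was -1.84 ± 0.85 (adjusted p = 0.336). Without sham P21 libraries 1 and 2 the WD values of Saa2 and Saa1 became -1.23 and -1.50, and without the 5 libraries richest in Saa1 -1.36 and -1.71, so their sign turned. Without SG P21 library 5, 1 member was called for WD. Calls on one diet and not on another are thus not shown to differ.

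Among sham mice, P21 was set against WD to ask what leaving the Western diet did. Of the 10 genes, 1 fell and 0 rose, against 32.1% of all genes called. Orm3 was lower on P21 by -3.26 ± 0.66 log2 (adjusted p = 0.000149), with no overlap of 7 against 8 mice and an exact two-sided permutation p of 0.000155, unadjusted and the smallest these numbers allow. Such a gap was found in 4.58% of all genes. The summary of Saa1 depended on 2 mice: its mean was 731 CPM on P21 and 228 on WD, whereas its median was 22.5 on P21 and 215 on WD. The fit, which follows the mean, gave 1.68 ± 1.07 (adjusted p = 0.23), and without sham P21 libraries 1 and 2 it gave -2.92. Without the 5 libraries richest in Saa1, 8 members were called, with Lcn2 at -4.22 (adjusted p = 0.00249) and Hp at -0.74 (adjusted p = 0.0107). Sham P21 libraries 1 and 2 are among those 5 and were picked for their high values. That count and its p-values thus show only what the calls depend on, and the 32.1% belongs to the fit of all libraries. The count was 2 without sham WD library 3 or 4 or sham P21 library 4. In this comparison 9 of 12 macrophage markers fell (median -1.72), 3 of 7 erythroid markers fell, and 4 of 6 plasma and B cell markers and 4 of 10 hepatocyte markers rose. Plasma and B cell markers summed to 478 and 370 CPM in sham P21 libraries 3 and 7, against 17.4 to 25.5 in the other sham P21 livers. The part of all these markers in the results was not tested.

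In SG mice, Saa3 alone was lower on P21 than on WD, by -1.65 ± 0.62 log2 (adjusted p = 0.0378), against 29.5% of all genes called. Lcn2 (-2.43 ± 1.16, adjusted p = 0.107, and 0.14 without SG WD libraries 5 and 7), Hp (-0.76 ± 0.32, adjusted p = 0.0625) and Orm3 (-1.43 ± 0.60, adjusted p = 0.0653) did not pass. The unadjusted exact permutation p of Saa3 was 0.103. Of 12 macrophage markers, 8 fell and 0 rose in the same comparison (median -1.07), and their part in the result was not tested. The call of Saa3 was lost without any one of SG WD libraries 1, 5 and 7 and SG P21 libraries 1, 2, 3, 4 and 7. The count of members was 0 without SG WD library 5 or 7 or SG P21 library 1, 2, 3, 4 or 7, 2 without SG WD library 1, 2, 3 or 8, and 7 without SG P21 library 5.

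Low protein was compared with high protein within each operation. In sham mice, 3 genes were lower on P7 than on P36, all orosomucoids, and 0 were higher, against 15.7% of all genes called. Orm2 was at -2.82 ± 1.00 log2 (adjusted p = 0.0457), Orm3 at -2.65 ± 0.74 (adjusted p = 0.00993) and Orm1 at -1.84 ± 0.56 (adjusted p = 0.0173). Every sham P7 liver was below every sham P36 liver for Orm1 and Orm2, as for 7.48% of all genes, and the exact two-sided permutation p of Orm1 was 0.00126, unadjusted and the smallest that 7 against 5 mice allow. Hp differed by 0.00 ± 0.34 (adjusted p = 0.998). Without sham P36 library 3 the count was 0, and Orm2 also lost its call without any one of sham P7 libraries 3 to 7. Of skeletal muscle markers, 3 of 5 fell here (median -4.00). They summed to 17.6 CPM in sham P36 library 5, against 0.949 to 5.06 in the other sham P36 livers, and their part was not tested.

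In SG mice, Orm2 (-3.10 ± 1.03, adjusted p = 0.0282) and Orm3 (-2.74 ± 0.68, adjusted p = 0.00274) were lower on P7 than on P36, 2 of the 10 against 18.8% of all genes. Orm1 was at -1.38 ± 0.58 (adjusted p = 0.09) and Saa1 at -2.37 ± 1.25 (adjusted p = 0.185). The count was 5 without SG P7 library 6 and 1 without SG P36 library 4, SG P7 library 2 or SG P7 library 5, and Orm3 was called whichever library was left out. In the same comparison 5 of 7 erythroid markers (median -1.43), 3 of 6 adipocyte markers (median -3.17) and 1 of 12 macrophage markers fell. SG P36 library 1 held a sum of 1701 CPM of erythroid markers, against 446 to 551 in the other SG P36 livers. Its adipocyte markers summed to 362 CPM, against 22.5 to 26.0 in the others. The part of these markers in the results was not tested.

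Against P21, P7 gave 5 lower genes of the 10 in sham mice and 0 higher, with 26.3% of all genes called. Saa2 was at -6.12 ± 1.53 log2 (adjusted p = 0.0023), Saa1 at -4.99 ± 1.29 (adjusted p = 0.00298), Orm2 at -2.89 ± 0.96 (adjusted p = 0.0207), Orm1 at -2.04 ± 0.53 (adjusted p = 0.00317) and Serpina3n at -1.28 ± 0.42 (adjusted p = 0.0174). The medians of Saa1 were in the other order, at 28.0 CPM on P7 and 22.5 on P21. Without sham P21 library 1 or 2 the count was 3, and without both it was 0. Without the 5 libraries richest in Saa1, Orm1 remained, at -1.12 (adjusted p = 0.0298). Those libraries were picked for their high values, so that p shows only what the call depends on. With all libraries, Orm1 was the only member without overlap between the 2 groups (7.37% of all genes). Its exact permutation p was 0.000583, unadjusted and the smallest that 7 against 7 mice allow. The other 4 genes called here did not pass that exact permutation test (Saa1 0.121, Saa2 0.0967, Orm2 0.163 and Serpina3n 0.112).

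In SG mice, 1 of the 10 was lower on P7 than on P21, against 9.7% of all genes. That gene was Orm3, at -2.11 ± 0.63 (adjusted p = 0.0252), with an unadjusted exact permutation p of 0.196, and Saa2 (-3.88 ± 1.40, adjusted p = 0.0654), Orm2 (-2.78 ± 0.97, adjusted p = 0.0557) and Saa1 (-3.08 ± 1.19, adjusted p = 0.0898) did not pass. The count was 0 without SG P21 library 5 or SG P7 library 2, 3 or 5, 2 without SG P21 library 2, 4 or 7, and 5 without SG P7 library 6; DESeq2 called 4 and limma-voom 0.

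P36 against P21 gave 0 called members in sham mice (0.087% of all genes) and in SG mice (7.69%), with edgeR, DESeq2 and limma-voom alike. At an unadjusted p under 0.05 there were 3 members in sham mice (Saa1, Saa2 and Serpina3n) and 0 in SG mice. Of all 16087 genes, 1461 in sham mice and 3607 in SG mice were under it. Saa1 in sham mice was at -3.09 ± 1.35 log2 (adjusted p = 0.486) and Saa2 at -3.82 ± 1.58 (adjusted p = 0.457), and in SG mice Saa1 was at -0.71 ± 1.34 (adjusted p = 0.819). In sham mice the direction turned without sham P21 libraries 1 and 2, to 1.51 for Saa1 and 1.72 for Saa2, and the medians of Saa1 were 45.6 CPM on P36 and 22.5 on P21. Without SG P21 library 5, 2 members were called in SG mice. Comparisons that use the same group share its libraries and are not independent.

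Within families, the proportions of the members shifted from liver to liver. Divided by transcript length, Saa2 was below Saa1 in 50 of 56 libraries and above it in 6, which were the 5 libraries richest in Saa1 (ratio 1.16 or more, and 1.41 in SG WD library 5) and SG P36 library 3 (1.2). On chow the ratio was 0.425 to 0.643. The ratio of Orm2 to Orm1 was 0.0298 to 0.0463 on chow, had medians of 0.143 in sham WD and 0.244 in SG WD mice, and reached 0.506 in SG P21 library 5 and 0.496 in SG WD library 5. The ratio of Orm3 to Orm1 had medians of 0.0190 in sham WD, 0.00272 in chow and 0.00234 in sham P21 mice. Saa1 and Saa2 transcripts share 94.4% of 606 aligned bases with a longest identical run of 99, and Orm1 and Orm2 91.0% with a run of 141, and no window of 150 bases, the length of a read, was shared within either pair.

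The 10 transcripts varied together among mice of the same group. Over 56 libraries, with group means removed, log2 CPM of Saa1 correlated with the mean of the other 9 at r = 0.973 (rho = 0.943), Saa2 at r = 0.960 (rho = 0.91), Lcn2 at r = 0.946 (rho = 0.902) and Orm2 at r = 0.939 (rho = 0.905). Orm3 stood at r = 0.806 (rho = 0.76), Itih3 at r = 0.770 (rho = 0.698) and Saa3 at r = 0.733 (rho = 0.646). These values describe the libraries, in which all genes share RNA quality and cell content, and no p is given. Outside the 10, the genes most like their mean were Hpx (haemopexin, a haem carrier; r = 0.925, and 0.902 without SG P21 library 5 and SG WD library 5), Cyb561, Alpk1, Cpne8, Atp11a, Fgl1, Lbp, Cp, Chd9 and Slc3a1 (r = 0.839 to 0.808). Hpx ran from 2726 to 17166 CPM with a median of 4644, and was highest in SG WD library 5. Of these 10, Hpx, Fgl1, Lbp and Cp were also on a list of other positive acute phase genes.

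Markers of neutrophils moved with part of these results. Summed over 13 markers, they reached 2519 CPM in SG WD library 5 and 1889 in library 7, against 24.1 to 124 in the other SG WD mice and 4.67 to 60.8 in sham WD mice. SG P21 library 5 held 491 and SG P7 library 6 held 107. Sham P21 libraries 1 and 2, with 2164 and 2801 CPM of Saa1, held 8.46 and 6.24, inside the range of 3.46 to 18.6 of their group. The mitochondrial share of counts in these sham P21 livers was 10.84% and 10.6%, against 6.44% to 7.79% in the other 5. It was the highest of its group in SG P7 library 6, at 11.84%, and the lowest in SG WD libraries 5 and 7, at 5.79% and 5.73%, and in SG P21 library 5, at 6.98%, and its part in the results was not tested. In the chow mice the sum was 3.38 to 6.08, with Ly6g and Camp at 0. High Saa1 was thus found with high and with low neutrophil markers, and the part of neutrophils in the results was not tested.

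On WD, 13 of 13 neutrophil markers rose after SG, with a median log2 difference of 5.90 (S100a8 by 6.16 ± 1.00, adjusted p = 0.000119), and without SG WD libraries 5 and 7 it was 0 of 12, with a median of 1.93. On P21, 11 of 13 rose, with a median of 4.02, and without the 5 libraries richest in Saa1 it was 3 of 12, with a median of 2.39. On P36 and P7 none was called (medians 2.49 and 2.40, with 4 and 9 of 13 at an unadjusted p under 0.05). Of 12 macrophage markers, 1 rose and 1 fell on WD (median 0.32), and their sum was 1975 and 1988 CPM in SG WD libraries 5 and 7 against 526 to 946 in the other 6. In SG WD mice the 10 hepatocyte markers summed to 44594 to 91702 CPM, with 48123 in library 5 and 44594 in library 7, the lowest of the group. SG P21 library 5 held 59622, against 86915 to 118651 in the other SG P21 livers. Sham P21 libraries 1 and 2 held 73348 and 86658, against 81638 to 92595 in the other sham P21 livers, so library 1 was the lowest of its group. Of skeletal muscle markers, 4 of 5 rose after SG on WD (median 4.12), and their sum was 48.0 CPM in SG WD library 4, which was second in Orm3, against 0.44 to 1.46 in the other SG WD libraries. Their part in the results was not tested. After SG on WD, 1 of 6 plasma and B cell markers rose, and none of 6 adipocyte, 3 pancreatic acinar, 7 T cell or 7 erythroid markers was called in edgeR's test, with 0, 0, 2 and 0 at an unadjusted p under 0.05. In bulk liver, fewer cells of a type and less RNA per cell cannot be told apart.

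**Figure D5:**
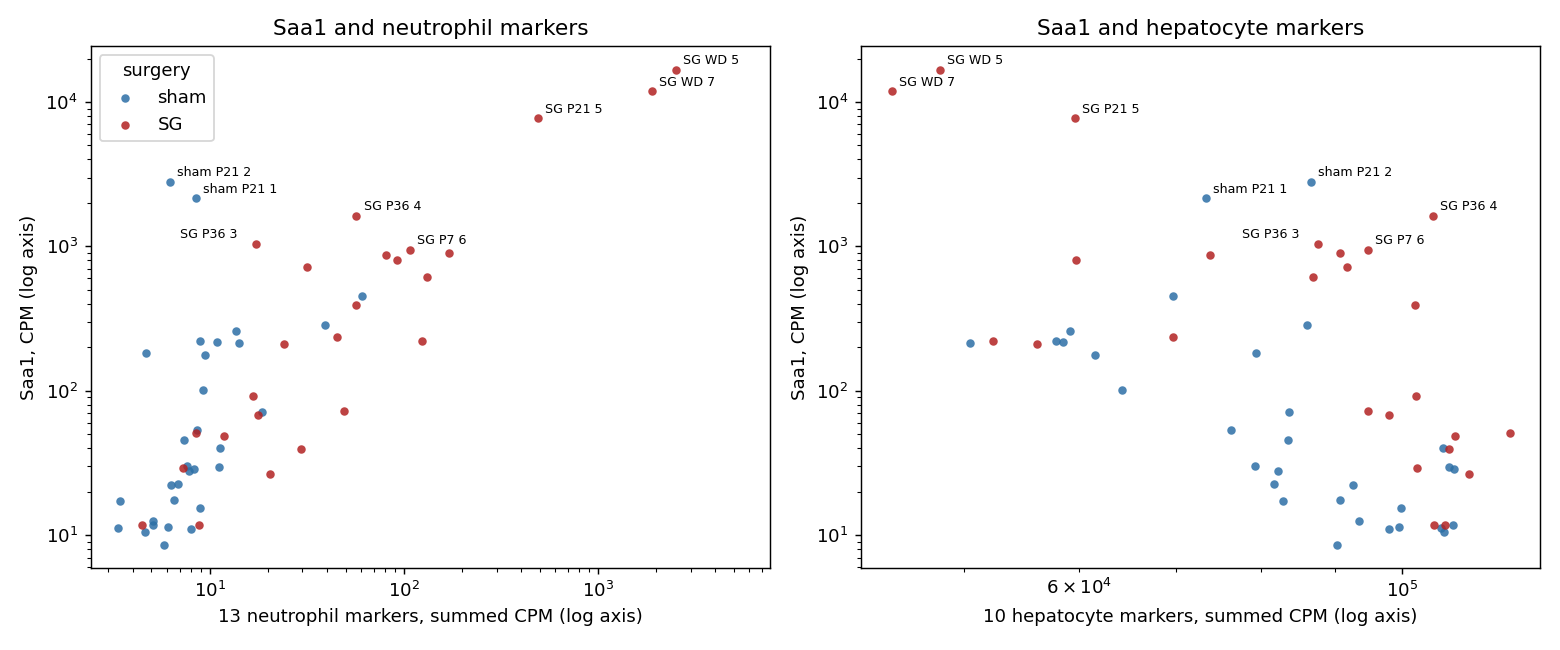
Saa1 (CPM, log axis) against the summed CPM of 13 neutrophil markers (left) and of 10 hepatocyte markers (right, both log axes), 1 point for each of 56 libraries, blue for sham and red for SG. SG WD libraries 5 and 7 lie at the top right on the left panel, whereas sham P21 libraries 1 and 2 are high in Saa1 with neutrophil markers at 8.46 and 6.24 CPM.

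Other positive acute phase genes, 23 in all and none of them a member, were read beside the members. After SG on WD 2 rose, Cd14 (a co-receptor for endotoxin; 2.44 ± 0.58, adjusted p = 0.0101) and Apcs (serum amyloid P; 1.70 ± 0.44, adjusted p = 0.0219), with a list median of 0.62 log2, and 0 without SG WD libraries 5 and 7. On P36, 6 of 23 rose with a list median of 1.00, among them the metallothionein gene Mt2 (6.69 ± 1.47, adjusted p = 0.00704) and Hpx (1.33 ± 0.36, adjusted p = 0.0334). Mt2 had a median of 4.82 and a highest value of 790 CPM in SG P36 mice, so a single liver held most of it. On P21, 2 of 23 rose, Cd14 (2.25 ± 0.69, adjusted p = 0.0331) and Il1rn, the antagonist of the interleukin-1 receptor (1.64 ± 0.53, adjusted p = 0.0412), with a list median of 0.0. On P7 none was called in edgeR's test, and 8 of 23 had an unadjusted p under 0.05. Between P7 and P21 in sham mice 10 fell and 2 rose, and without sham P21 libraries 1 and 2 these counts were 3 and 2. With all libraries, 2.34% (WD), 2.22% (P36), 8.52% (P21) and 0.0% (P7) of all genes were called after SG. The 2 of 23 on P21 is near its share. For P7 against P21 in sham mice 26.3% of all genes were called.

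Negative acute phase genes, whose plasma proteins fall in inflammation, were not called after surgery. Of 11, edgeR's test called none on any of the 4 diets, with list medians of 0.13 (WD), 0.01 (P36), 0.06 (P21) and -0.05 (P7) and with 2, 2, 1 and 0 at an unadjusted p under 0.05. In sham mice 5 of 11 were lower on WD than on chow and 0 higher, among them Alb (albumin; -0.79 ± 0.17, adjusted p = 0.000218), whose level was 33374 to 52596 CPM on WD and 66404 to 74812 on chow. Among single livers, Alb was lowest of its group in SG WD libraries 5 and 7, at 27249 and 26991 CPM against 36244 to 60959 in the other 6, and in SG P21 library 5, at 36949 against 63523 to 90505 in the other 5. It was also lowest in sham P21 library 1, at 48020, whereas sham P21 library 2, at 60643, lay within the 57669 to 67300 of the rest. SG P7 library 6 was the lowest of its group by little, at 67356 against 67913 to 78386.

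Of 28 genes of interleukin-6, interleukin-1 and tumour necrosis factor signalling, 27 could be tested, the cytokine gene Il6 not passing the filter on low counts. After SG on WD 3 rose and 0 fell: Nfkbiz (a nuclear partner of NF-kappaB; 0.99 ± 0.23, adjusted p = 0.00737), Il1b (1.72 ± 0.43, adjusted p = 0.0154) and Socs3 (the feedback inhibitor of STAT3 signalling; 1.41 ± 0.40, adjusted p = 0.0389). None was called without SG WD libraries 5 and 7. On P36 Nfkbiz rose (1.25 ± 0.30, adjusted p = 0.0154), and on P21 6 rose and 1 fell, among them Osmr, a receptor subunit for oncostatin M (1.35 ± 0.27, adjusted p = 0.00219), and Nfkbiz (1.00 ± 0.25, adjusted p = 0.011). On P7 none was called, and 1 of 27 had an unadjusted p under 0.05. The shares of all genes called were 2.34% (WD), 2.22% (P36), 8.52% (P21) and 0.0% (P7).

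The authors' deposited table of comparisons covers the operation on P36, on P21 and on P7 and holds all 10 genes. In the authors' deposited table, Orm3 was higher after SG by 2.75 log2 on P36 (adjusted p = 0.0465), 2.56 on P21 (adjusted p = 0.0439) and 2.00 on P7 (adjusted p = 1.0). Orm2 in the authors' deposited table was higher by 2.82 on P21 (adjusted p = 0.038) and by 3.48 on P36 (adjusted p = 0.0931). For Itih3 on P36 the authors' deposited table gives 1.24 (adjusted p = 0.0583), and for Orm1 on P7 it gives 2.06 (adjusted p = 0.159). In these comparisons the only sign that differed from the fit described above was that of Serpina3n on P21, at 0.0035 in the authors' deposited table.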

How the data were processed

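Liver RNA of 62 labelled mice was measured by sequencing of polyadenylated RNA in stranded libraries, per the labels' protocols. The authors deposited a table of expected counts per gene from RSEM, per the name of the sheet, with a column for 57 of the samples. Not analysed here were 5 labelled samples, of which 2 were sham chow and 1 each sham P7, sham P36 and SG P21. GRCm39, R 4.4.1, edgeR and limma are named in the submitters' processing notes without a role. For the aligner, annotation and filters, the sources used here give no name. The authors also deposited a table of log2 fold changes, p-values and F scores, which was read only for the values credited to it.

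Of the gene IDs, 15523 were paired with a symbol by the authors' own comparison table, 36760 by GENCODE M21 (GRCm38) and 4601 by neither. Expected counts were rounded. Genes were kept by filterByExpr, libraries were scaled by TMM, and 1 model over 56 libraries in 9 groups (47 residual degrees of freedom) was fitted with edgeR 4.0.16 in R 4.3.3, using its quasi-likelihood test, log2 differences with a prior count of 2 and Benjamini-Hochberg adjustment over all 16087 genes. An adjusted p under 0.05 was a call. Differences of log2 CPM were also put to exact two-sided permutation tests over mice, which are not adjusted. Alternatives were RLE scaling, no filter on low counts, the robust spread, limma-voom (limma 3.58.1), DESeq2 1.42.0, only the groups compared, near-identical copies summed, and libraries left out. The fitting steps were tested on simulated data.

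The 10 genes, the gene lists, and SG WD libraries 5 and 7 as libraries to leave out were chosen with earlier results of these data known. Leaving out sham P21 libraries 1 and 2, or the 5 libraries with the most Saa1, was added after seeing the data. Fits without libraries picked for their high values show only what a call depends on. Lists covered other positive and negative acute phase genes, IL-6, IL-1 and TNF signalling, and markers of neutrophils, macrophages, hepatocytes, skeletal muscle, adipocytes, pancreatic acini, plasma and B cells, T cells and erythroid cells. Up to 4 genes of a list with the lowest adjusted p, and the 10 genes most like the mean of the members, were named. Replicate numbers were given in accession order and pair no samples. RSEM divides reads that match several genes among them by estimate, and a call with near-identical copies summed is among the alternatives. With 8 or fewer libraries a group and spreads between mice as wide as those given, only large differences could be called.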

Additional observations from a re-analysis of the deposited data

Results flagged for a closer look

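In 7 of 90 combinations of gene and group, spread over 5 genes, 1 liver lay far from the others of its group by Dixon's test on log2 CPM, and chance alone gives about 5%. The 90 tests are not independent, as the genes vary together, and no excess over chance is claimed. Dixon's test looks for 1 stray liver and can miss 2 that are high together. SG WD libraries 5 and 7 and sham P21 libraries 1 and 2 were not flagged. SG P36 library 2 was low, with 26.7 CPM of Saa1 and 1029 CPM of Itih3. SG P7 library 6 was high, with 951 CPM of Saa1. Sham WD library 4 held 23.5 CPM of Saa3, and sham P36 library 3 held 266 CPM of Orm2. Sham P7 library 7 held 4658 CPM of Hp, and chow library 1 had the lowest Orm2 of its group, at 13.4 CPM.

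The single SG mouse on chow, used in no comparison, was above all 4 sham chow mice for all 10 genes. It held 503 CPM of Saa1, 166 of Saa2 and 11.8 of Saa3. Its orosomucoid transcripts stood at 1741 (Orm1), 297 (Orm2) and 9.79 CPM (Orm3). It held 218 CPM of Lcn2, 10161 of Hp, 1601 of Itih3 and 528 of Serpina3n. With 1 mouse, the difference has no replicate check.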

How the results depend on the processing

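No paired analysis was possible because the labels give no replicate numbers. Of 84 differences of single genes, RLE scaling kept direction and call in 83, no filter in 78, the robust spread in 78, DESeq2 in 75, summed copies in 72, the 2 groups alone in 71 and limma-voom in 63. The cause of changes was not tested. The exact permutation tests kept 48 of 72, with 7 weaker, 14 stronger and 3 reversed. Of 25 calls, 6 held whichever library was left out, and 0 held under every alternative when single libraries left out are counted among them. Saa1 and Lcn2 (WD against chow) and Orm1 (P7 against P36 in sham mice) were lost only by leaving out single libraries. With copies summed, Saa1 and Saa2 were 1 entry and Orm1, Orm2 and Orm3 were 1 entry, whose value stands for each gene in it. Counts with copies summed therefore run over fewer entries, and a lower count need not be a lost call. Counts of called members went from 4 to 2 with copies summed, where only the call of Orm3 was lost, and to 8 with only the groups compared (WD against chow). For SG against sham on WD, 5 became 2 with the robust spread and 0 with limma-voom, only the groups compared, without SG WD libraries 5 and 7, or without the 5 libraries with the most Saa1. On P36, 1 became 0 without the filter, 3 with DESeq2 and 2 with only the groups compared. On P21, 2 became 1 (no filter, robust, only the groups), 0 (copies), 6 without sham P21 libraries 1 and 2 and 5 without the 5 libraries. P21 against WD in sham mice went from 1 to 3 (limma-voom, without sham P21 libraries 1 and 2), 0 (copies) and 8 (without the 5), and in SG mice from 1 to 0 (no filter, only the groups), 3 (limma-voom, DESeq2) and 4 (without the 5). P7 against P36 went from 3 to 1 (limma-voom, copies) and 5 (only the groups) in sham mice, and from 2 to 0 (copies) in SG mice. P7 against P21 went from 5 to 1 (limma-voom, without the 5), 3 (copies) and 0 (without sham P21 libraries 1 and 2) in sham mice, and from 1 to 0 (limma-voom, copies, without the 5, only the groups) and 4 (DESeq2) in SG mice. P36 against P21 in SG mice went from 0 to 3 without the 5. Some further lost calls are not in these counts. Saa2 (WD against chow) and Orm2 (P7 against P36 in sham mice) were lost without the filter and with the robust spread. Orm1 (SG against sham on WD) was lost with RLE scaling and with DESeq2.

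With each library left out in turn, the counts ran from 1 to 4 (WD against chow), 0 to 7, 0 to 3, 0 to 3 and 0 to 0 (SG against sham on WD, P36, P21 and P7), 1 to 2 and 0 to 7 (P21 against WD, sham and SG), 0 to 3 and 1 to 5 (P7 against P36), 3 to 5 and 0 to 5 (P7 against P21), 0 to 0 and 0 to 2 (P36 against P21), and 0 to 1 for the surgery effect on WD minus that on P21.

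Signs reversed mainly with the libraries left out. For P21 against WD in sham mice, Saa1 was -1.11 (limma-voom), -2.92 (without sham P21 libraries 1 and 2), -2.87 (without the 5) and -1.16 (mean log2 CPM), and Saa2 was -0.88, -2.88, -2.84 and -0.92. In SG mice without SG WD libraries 5 and 7, Saa1 was 1.51, Saa2 2.02 and Lcn2 0.14. For P7 against P21, Lcn2 in sham mice was 0.08 (limma-voom), 1.22 and 1.17 (without sham P21 libraries 1 and 2, and without the 5), and in SG mice 0.05 (limma-voom), 0.78 (without the 5, or without SG P21 library 5) and 0.08 (mean log2 CPM). For P36 against P21 in sham mice, without sham P21 libraries 1 and 2 and without the 5, Saa1 was 1.51 and 1.49, Saa2 1.72 and 1.71 and Serpina3n 0.04 both times, and Orm3 was -0.17 with copies summed. Without sham P21 libraries 1 and 2, the surgery effect minus that on P21 was -2.22 (Saa1) and -2.66 (Saa2) for P36, -2.69 (Saa1), -3.30 (Saa2) and -0.21 (Serpina3n) for P7, and -1.50 (Saa1), -1.23 (Saa2) and -1.84 (Lcn2) for WD. For WD it was -1.71 (Saa1), -1.36 (Saa2), -2.47 (Lcn2) and -0.38 (Serpina3n) without the 5, -1.04 (Lcn2) without SG WD libraries 5 and 7, and 0.33 (Orm3) with copies summed. With each library left out, that for P7 ran from -0.05 (without SG P7 library 6) to 4.64 (without SG P21 library 5) for Saa1 and from -0.13 to 5.8 for Saa2. Saa1 after SG on P21 ran from -1.72 (without SG P21 library 5) to 1.94, the difference of Lcn2, P7 against P36 in sham mice, from -2.24 to 0.53 (without sham P36 library 3), and Lcn2 on P7 against P21 in SG mice from -2.76 to 0.78.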
